A study of Mus musculus with 2 samples.

Results

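The genes described here encode the receptors, ligands and nuclear effectors of Notch signalling, measured in bone marrow stem and progenitor cells of nondiabetic and diabetic mice. The members were the 4 receptors Notch1, Notch2, Notch3 and Notch4, the 3 ligands Jag1, Jag2 and Dll1, and the 3 nuclear effectors Hes1, Rbpj and Maml1. They are 10 of the 21360 genes that could be named on the arrays, and the rule that picks them uses the symbol and no measured value, though earlier results of these data were known. Every non-control probe whose transcript accession maps to one of these symbols was taken, which gave 13 probes on 22 spots.

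The cells were LSK cells, that is bone marrow cells without lineage markers that carry Sca1 and ckit, a gate that holds hematopoietic stem cells and multipotent progenitors. RNA came from female C57BL/6J mice, either nondiabetic or with diabetes induced by streptozotocin (STZ), a toxin of pancreatic β-cells, and the labels give no age and no interval after STZ. Each group was 1 pool of 3 mice and 1 Agilent array, amplified from 8.3 ng of total RNA, and both arrays lay on 1 slide. With 1 array per group there is no spread between mice and no test, so each difference is that between 2 pools.

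Notch signalling passes between touching cells. A ligand of the Jagged or Delta family on one cell binds a Notch receptor on its neighbour, the receptor is cut by an ADAM protease and then by γ-secretase, and the freed intracellular part enters the nucleus. There it joins the DNA-binding protein RBPJ and a Mastermind coactivator and turns on targets such as Hes1, a transcriptional repressor. In blood formation the pathway is best known for committing progenitors that reach the thymus to the T cell lineage.

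Both member ligands that could be read, Jag2 and Dll1, were lower in diabetic LSK cells. The bounds were at least 6.24-fold and at least 4.02-fold, against the lowest signal called well above background on the diabetic array. Their size depends on the processing. With another background correction, normexp, the log2 values were -0.89 and -0.65, short of 2-fold. The receptors Notch1 and Notch2 lay within 2-fold of the nondiabetic level on all 4 of their probes. One probe of Rbpj was 2.07-fold higher while its other probe was 1.29-fold lower, and Hes1 was 1.95-fold higher from a level near background. Of the 10 genes, 8 had a ratio or a bound on it by their brightest probe. Of these 8, 1 exceeded 2-fold upward, 2 exceeded it downward and 5 did not pass it. Among the 5, Notch3 is a lower bound that leaves a larger difference possible. Hes1 is a plain ratio whose error lies on both sides of 2-fold. Among the 15192 genes with a ratio, 11.0% passed 2-fold upward and 10.1% downward, so a difference of this size was common on these arrays. The median log2 ratio was 0.11 over the 8 members and 0.02 over all genes with a ratio, and the members' median turned to -0.12 when each gene was read by the mean over its probes.

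Promoter windows from RefSeq (build GRCm38.p6) were found for 9 of the 10 members, in 11 windows of 300 bases. Each holds 250 bases before an annotated start site and 50 after it, and that site need not be the outermost of the gene. Hes1 had no window, so its promoter was not searched. The windows of Jag2 and Dll1 are shown because these ligands had the largest differences among the members, and that of Rbpj because it alone among the matched members holds the core of the RBPJ binding motif. In the Jag2 and Dll1 windows the capitals mark CpG, and in the Rbpj window they mark the core TGGGAA or its reverse complement TTCCCA.
Jag2: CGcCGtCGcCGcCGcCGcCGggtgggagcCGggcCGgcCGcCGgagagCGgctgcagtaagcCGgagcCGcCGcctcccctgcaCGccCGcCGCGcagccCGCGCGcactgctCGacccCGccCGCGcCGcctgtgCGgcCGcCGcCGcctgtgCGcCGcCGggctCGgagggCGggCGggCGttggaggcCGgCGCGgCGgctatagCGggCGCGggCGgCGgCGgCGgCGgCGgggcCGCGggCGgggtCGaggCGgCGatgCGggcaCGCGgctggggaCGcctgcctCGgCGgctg
Dll1: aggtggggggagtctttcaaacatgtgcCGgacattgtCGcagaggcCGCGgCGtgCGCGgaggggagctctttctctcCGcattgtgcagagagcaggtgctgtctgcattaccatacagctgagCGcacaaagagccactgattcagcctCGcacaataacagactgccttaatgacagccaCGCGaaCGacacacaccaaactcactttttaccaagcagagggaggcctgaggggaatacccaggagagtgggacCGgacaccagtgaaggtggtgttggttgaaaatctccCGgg
Rbpj: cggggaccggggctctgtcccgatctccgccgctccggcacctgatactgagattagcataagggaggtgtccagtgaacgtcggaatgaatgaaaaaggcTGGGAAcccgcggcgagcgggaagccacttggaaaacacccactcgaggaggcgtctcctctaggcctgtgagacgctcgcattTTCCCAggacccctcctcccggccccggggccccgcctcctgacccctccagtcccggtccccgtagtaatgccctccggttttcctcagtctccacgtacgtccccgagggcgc
The genes themselves lie at chr12:112907803-112929812 (Jag2), chr17:15367354-15376932 (Dll1) and chr5:53555779-53657445 (Rbpj). The Jag2 and Rbpj windows lie wholly inside these bounds, so they are not the sequence upstream of the whole gene. The Jag2 window (chr12:112929446-112929745, minus strand) has 86% G and C and 63 CpG, at percentile 99.99 of the 32851 windows searched, which have a median of 7 CpG. The Dll1 window shown (chr17:15376883-15377182, minus strand) has 15 CpG, and a second Dll1 start (chr17:15375774-15376073) has 24. These promoters of 2 ligands that were lower together are therefore unlike in base composition. In the Rbpj window shown (chr5:53590096-53590395, plus strand) the core lies at position -149 on the plus strand and at -65 on the minus strand. Positions are counted from that window's start site. A second, overlapping Rbpj window (chr5:53590236-53590535) holds 1 core, at -205 on the minus strand, so count and position depend on the start. The core, 6 bases long and searched on both strands, occurs in 25.6% of all windows, and the match is a description of the sequence only.

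Values below are processed intensities, the background-subtracted brightness that the array software gives, before any scaling between arrays. A log2 ratio is diabetic over nondiabetic after each array was scaled to its 75th percentile, and its error is the software's own error of the spots, which covers the measurement on the array and not the spread between mice. A probe is read as present only where the software marked it as well above background. Where only 1 array passed, the ratio is a bound, written as at least so many fold. It is taken against the lowest signal called well above background on the dim array. Where the dim signal was itself higher than that, as for Hes1, the value is the plain ratio. Since dim spots can exceed that lowest signal, a bound holds only for this choice and this processing. Levels of different genes are not set against each other, since each probe binds with its own strength.

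**Figure D1:**
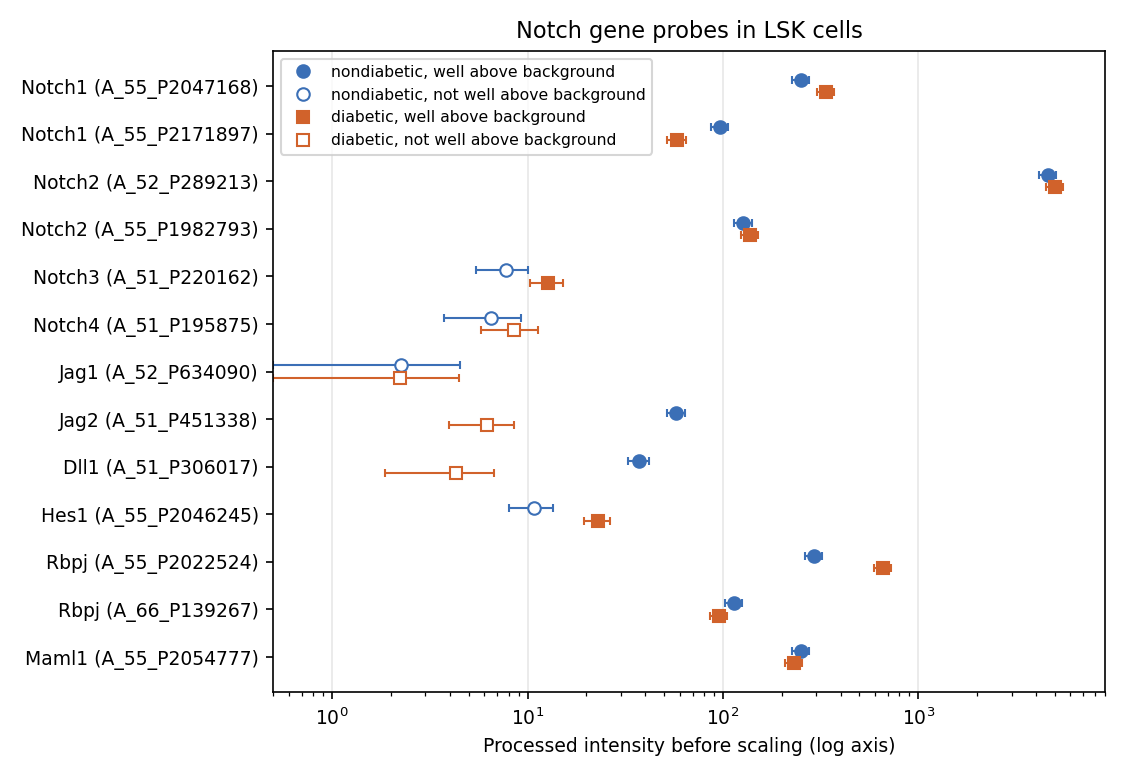
Processed intensity before scaling (x axis, log scale) of each of the 13 probes of the Notch genes on the nondiabetic (circles) and the diabetic array (squares). Bars are the software's error and are cut at the left edge for Jag1, and open symbols are not well above background. Jag2 and Dll1 go from filled at 57.8 and 37.3 to open at 6.22 and 4.31, and Hes1 and Notch3 go from open to filled.

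Of the receptors, Notch2 was the same on both arrays to within its error. Its first probe read 4588 on the nondiabetic and 5009 on the diabetic array, a log2 ratio of 0.01 ± 0.20. Its second probe read 127 and 138, which after scaling left no difference (log2 ratio 0.00 ± 0.21). The 2 probes of Notch2 thus gave the same answer at unlike brightness. In blood-forming cells Notch2 is known for its part in stem cell recovery and in the marginal zone B cell fate.

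Notch1, the receptor that commits progenitors to the T lineage, gave an answer that depended on the probe. The brighter probe read 250.8 on the nondiabetic and 338 on the diabetic array, a log2 ratio of 0.31 ± 0.20. The second probe read 96.6 and 58.1, a log2 ratio of -0.85 ± 0.21. The 2 ratios differ by 1.16 ± 0.30 on the log2 scale, or 2.24-fold, and lie on either side of 0, so no direction is given for Notch1.

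Notch3 and Notch4 were close to background. Notch3, a receptor best known in vascular smooth muscle and T cell precursors, read 7.74 in nondiabetic cells, not well above background, and 12.7 in diabetic cells. This bounds it at at least 1.15-fold higher, with the higher value itself little above the lowest signal called well above background there, 10.1. Notch4, the receptor of endothelium, read 6.49 and 8.51 and was well above background on neither array, so it has no ratio.

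The ligands carried the largest differences among the members. Jag2, a Jagged ligand with a part in γδ T cell development, read 57.8 in nondiabetic cells and 6.22 in diabetic cells, where it was not well above background. It was at least 6.24-fold lower (log2 bound -2.64). The value rests on 1 spot per array. Around the Jag2 spot, the 44 spots well above background on both arrays had a median log2 ratio of -0.05. Spots dim on either array were left out, so this median cannot show whether signal nearby was lost.

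Dll1, a Delta-like ligand that drives T cell specification in culture, was printed 10 times on each array and is the member with the most repeated measurement. Its 9 spots kept ranged from 31.0 to 50.01 on the nondiabetic array, with a median of 36.5. The same spots ranged from 2.04 to 9.59 on the diabetic array, with a median of 4.10. On the nondiabetic array all 9 cleared background and on the diabetic array 0 of 9 did, and the ranges did not overlap. The tenth spot, which the software marked as an outlier and which was left out, read 66.5 and 23.5. It too was lower on the diabetic array, and 23.5 is still below the lowest nondiabetic spot.

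The bound for Dll1 was at least 4.02-fold lower (log2 -2.01). Spot by spot, with dim values taken as they stand, the scaled log2 difference was -3.23 ± 0.78 (SD, n = 9 spots) and ran from -4.34 to -2.17. Spots of 1 array share the same labelled RNA, so this SD is that of the measurement. Around the 10 Dll1 positions, the spots well above background on both arrays had median log2 ratios between -0.17 and 0.21. Dim spots were left out there too, so a loss of signal nearby could be missed. For background, 399 probes were printed 10 times. In 80 of these (20.1%) every diabetic spot lay below every nondiabetic spot after scaling, and in 89 (22.3%) every one lay above. Of the 254 probes printed 10 times that cleared background in nondiabetic cells, 17 (6.69%) did not do so in diabetic cells, Dll1 among them. Another 18 cleared background in diabetic cells only.

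**Figure D2:**
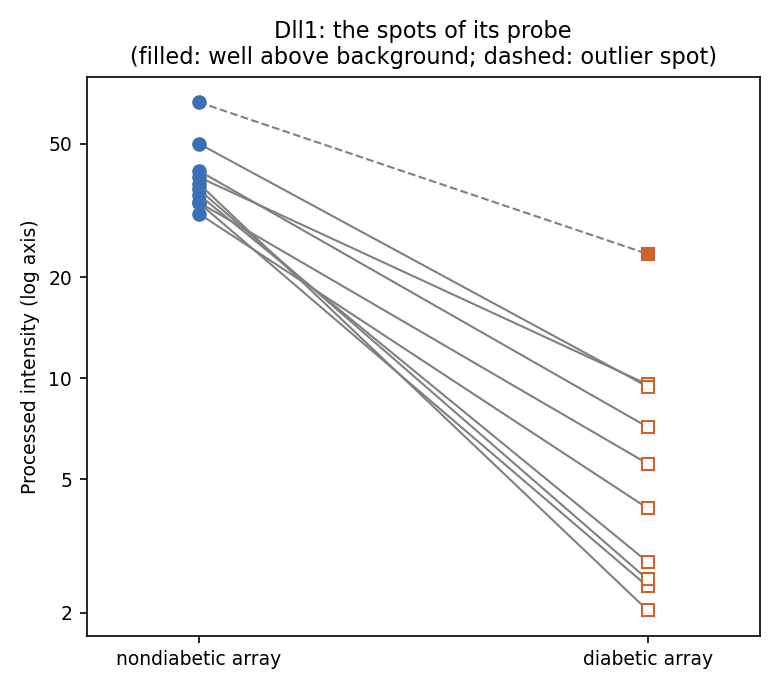
Processed intensity (y axis, log scale) of the 10 spots of the Dll1 probe on the nondiabetic (circles) and the diabetic array (squares), with a line joining the spots at the same position. Filled symbols are well above background and the dashed line is the outlier spot, and every diabetic spot lies below every nondiabetic one, 23.5 at the highest against 31.0 at the lowest.

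Jag1, the Jagged ligand of bone marrow endothelium and stroma, read 2.24 and 2.22 and was well above background on neither array. Negative control spots had medians of 2.35 and 2.32, so the Jag1 probe gave no more signal than they did. Nothing can be said of a difference in Jag1.

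Of the nuclear effectors, Rbpj, the DNA-binding partner of all Notch receptors, was the member gene called higher, by its brighter probe alone. That probe read 292 on the nondiabetic and 656 on the diabetic array, a log2 ratio of 1.05 ± 0.20 (2.07-fold), an interval that reaches below the 2-fold limit. The second probe read 114 and 95.4, a log2 ratio of -0.37 ± 0.21. The probes differ by 1.42 ± 0.29 on the log2 scale, or 2.68-fold, and they point opposite ways. RefSeq lists 5 transcripts of Rbpj, and which of them each probe binds was not examined.

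Hes1, the repressor most often read as a Notch target, was seen on the diabetic array only. It read 10.8 in nondiabetic cells, not well above background, and 22.9 in diabetic cells, a log2 ratio of 0.97 ± 0.43 (1.95-fold). The dim signal was above the lowest signal called well above background there, 10.2, so this is the plain ratio and not a bound. Under the scalings tried the Hes1 ratio lay between 0.95 and 0.99, just short of 2-fold, and its error reaches to both sides of that limit. Rbpj, just past the limit, lay between 1.02 and 1.07. Maml1, the Mastermind coactivator, read 251 and 230.0, a log2 ratio of -0.25 ± 0.21.

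**Figure D3:**
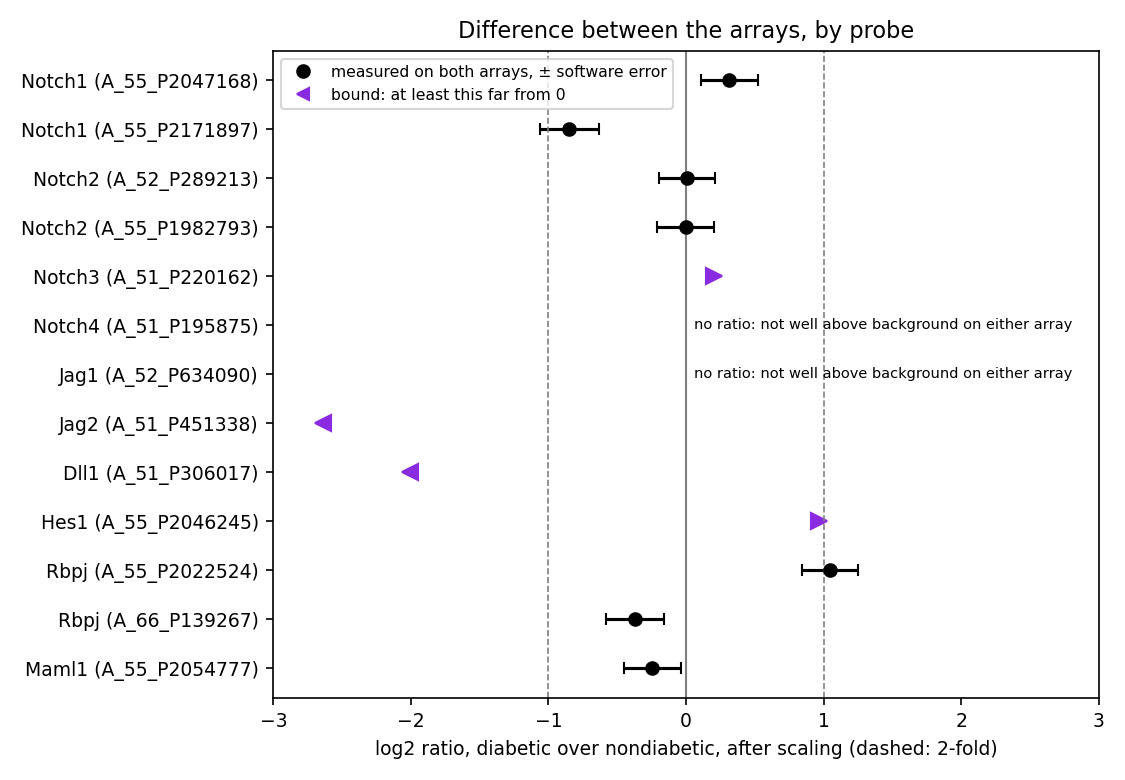
Log2 ratio of diabetic over nondiabetic after scaling (x axis) for the 13 probes, with the software's error as bars and dashed lines at 2-fold. Triangles are bounds that point away from 0, at -2.64 for Jag2 and -2.01 for Dll1, except that of Hes1, which marks its plain ratio. The paired probes of Notch1 and of Rbpj fall on opposite sides of 0.

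Taken by probe, 7 of the 13 were measured on both arrays, 4 were well above background on only 1 and 2 gave no ratio. Of the 11 with a ratio or bound, 1 passed 2-fold upward, against 11.2% of the 37791 probes on the arrays with one, and 2 passed it downward, also against 11.2%. Disagreement between probes was not particular to these genes. Among the 2705 genes with 2 measured probes, 31.8% had probes whose ratios differed by more than 2-fold and 44.8% had ratios of opposite sign. Of the 3 members with 2 probes, Notch1 and Rbpj differed by more than 2-fold and Notch2 did not.

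The rest of the pathway was read from a list of other genes, of which 65 were on the arrays and 58 had a ratio. Of the 58, 7 passed 2-fold upward, 6 passed it downward and 45 did not pass it, with a median log2 ratio of -0.02. Their shares were close to those of all genes given above.

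Among the 4 other ligands, Dll3 was lower, as the member ligands were, and Dlk1 higher. Dlk1, an imprinted ligand-like protein without the domain that activates Notch, read 36.5 and 181 by its brighter probe, a log2 ratio of 2.19 ± 0.23, the highest of the pathway genes. Dll3, a Delta-like protein that acts mostly inside the cell, read 36.9 and 14.2, a log2 ratio of -1.50 ± 0.32. Each had another probe that was dim on both arrays. Dll4, the ligand that drives T cell fate in the thymus, read 14.2 and 13.7 and differed by less than its error (-0.18 ± 0.38).

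Of the 6 genes of receptor maturation and sugar transfer, 4 had positive ratios and 1 passed 2-fold. This was Poglut1, which adds glucose to the receptor's EGF repeats, at 63.8 and 170, a log2 ratio of 1.30 ± 0.21. Rfng, a Fringe glycosyltransferase, was the lowest of them at -0.15 ± 0.20.

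Of 7 genes of receptor cleavage, Aph1a, a subunit of γ-secretase, was higher on both its probes. The brighter read 294 and 891 (log2 ratio 1.48 ± 0.20) and the other 12.8 and 86.5 (2.64 ± 0.32). The 2 probes of Aph1b, its paralogue, disagreed at 0.66 and -0.90. Psen2, a catalytic subunit, was the lowest of this group at -0.63 ± 0.29.

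Genes of ubiquitin transfer and trafficking held 3 of the 6 lower calls. Numbl, an endocytic inhibitor of Notch related to Numb, read 88.4 in nondiabetic cells and a dim 4.33 in diabetic cells, and was at least 9.53-fold lower. Dtx4, a Deltex ubiquitin ligase, read 405 and 205, a log2 ratio of -1.10 ± 0.20. Fbxw7, the ubiquitin ligase subunit that marks the cleaved receptor for destruction, read 501 and 122 by its brighter probe (-2.16 ± 0.20), while its other probe gave 0.29 ± 0.21. Numb itself was the highest of these genes at 0.59 ± 0.21, and Dtx1 was well above background on neither array.

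Of the 18 other nuclear partners, 3 passed 2-fold upward. Maml3, a Mastermind coactivator like Maml1, read 287 and 1150 by its brightest probe (1.89 ± 0.20), and its other 2 probes gave 0.74 and 0.66. The Groucho corepressors Tle1 and Tle4 were called higher at 1.46 and 1.97, but other probes of Tle1 gave -1.87 and bounds of -1.42 and -2.24, and the other probe of Tle4 gave -0.13. Tle2, a further Groucho gene, had probes at -0.17 and 1.51. The calls on these Groucho genes thus turn on the probe.

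The list of other targets held 16 genes, Hes relatives among them, and whether Notch drives each was not tested. Of these 16, 10 had a ratio, 7 of them positive and 3 negative, with a median log2 ratio of 0.28. Over all genes, 7773 of 15192 ratios were positive and the median was 0.02. Hes5 and Hes6, relatives of Hes1, had ratios of 0.44 ± 0.20 and 0.68 ± 0.20. Nrarp, a target that feeds back to damp Notch activity, read 17.4 and 48.8, a log2 ratio of 1.37 ± 0.30, the highest of them. Gata3, a T cell factor that Notch turns on in progenitors, read 99.5 and 43.8, a log2 ratio of -1.30 ± 0.22, the lowest. The other negative ratios were those of Myc (-0.47 ± 0.20) and Hes7 (-0.14 ± 0.20). Hey1, Hey2, Heyl, Hes3, Il2ra and Bcl11b were well above background on neither array.

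**Figure D4:**
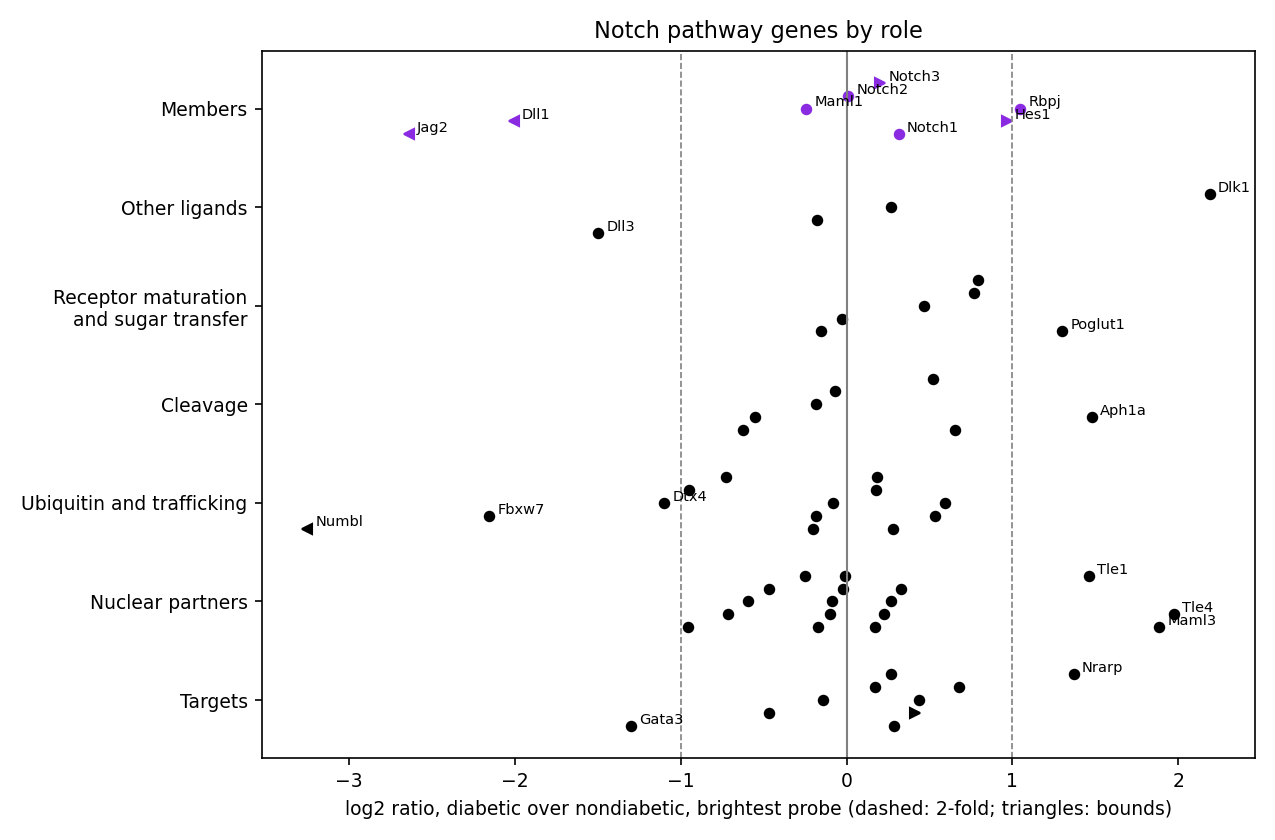
Log2 ratio of diabetic over nondiabetic after scaling (x axis) of each Notch pathway gene by its brightest probe, in rows by role with the members on top, and dashed lines at 2-fold. Triangles are bounds, except that of Hes1, a plain ratio, and drawn genes past 2-fold are named. Dlk1 lies farthest to the right at 2.19 and Numbl, a bound, farthest to the left.

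The arrays were alike in quality. Of the 59305 non-control spots on each, 62.7% and 63.9% were well above background and 0 were saturated. Markers of the LSK gate were present, with 9 of 10 stem and progenitor markers clearing background in nondiabetic and 10 of 10 in diabetic cells. Lineage markers cleared background too, with 7 of 7 myeloid, 4 of 6 B cell and 3 of 4 erythroid markers doing so on each array.

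Markers of other cells were given a place because T cells, endothelium and stroma also carry Notch genes. Of 7 T cell markers, 6 cleared background in nondiabetic and 4 in diabetic cells. Cd3d and Cd3g, subunits of the T cell receptor complex, went from 25.4 each to 9.67 and 2.11, not well above background. Cd3e, a further subunit, stayed well above background at 238 and 198, and so did Cd2 at 16.5 and 17.1. The median log2 ratio was -0.22 over the 6 T cell markers that had one. The summed intensity of all 7 was 1667 and 1651, most of it from Cd4 (971 and 1019) and Lck (381 and 397), and Cd8a was well above background on neither array. Of 7 genes listed as endothelial markers 6 passed on each array, with sums of 1565 and 2281 and a median log2 ratio of -0.11. Pooled RNA cannot tell whether the LSK cells themselves expressed these 6. The higher sum came from Pecam1, at 162 and 936, while Emcn read 111 and 49.2. The defining marker Cdh5 was near negative controls on both arrays at 2.52 and 2.47. Of 7 stromal markers 4 passed on each array, with sums of 390 and 319 and Col1a1 and Pdgfra near negative controls on both. The part of other cells in the differences of the Notch genes was not tested, and in pooled RNA fewer cells of a type and less RNA per cell cannot be told apart.

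With normexp in place of the software's subtraction, run on median signals and with an offset of 50, changes that were not separated, the log2 values were -0.89 for Jag2, -0.65 for Dll1, 0.05 for Hes1 and 0.87 for Rbpj. Their directions held and none passed 2-fold. The share of all genes past 2-fold also dropped there, to 3.96% higher and 3.29% lower.

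**Figure D5:**
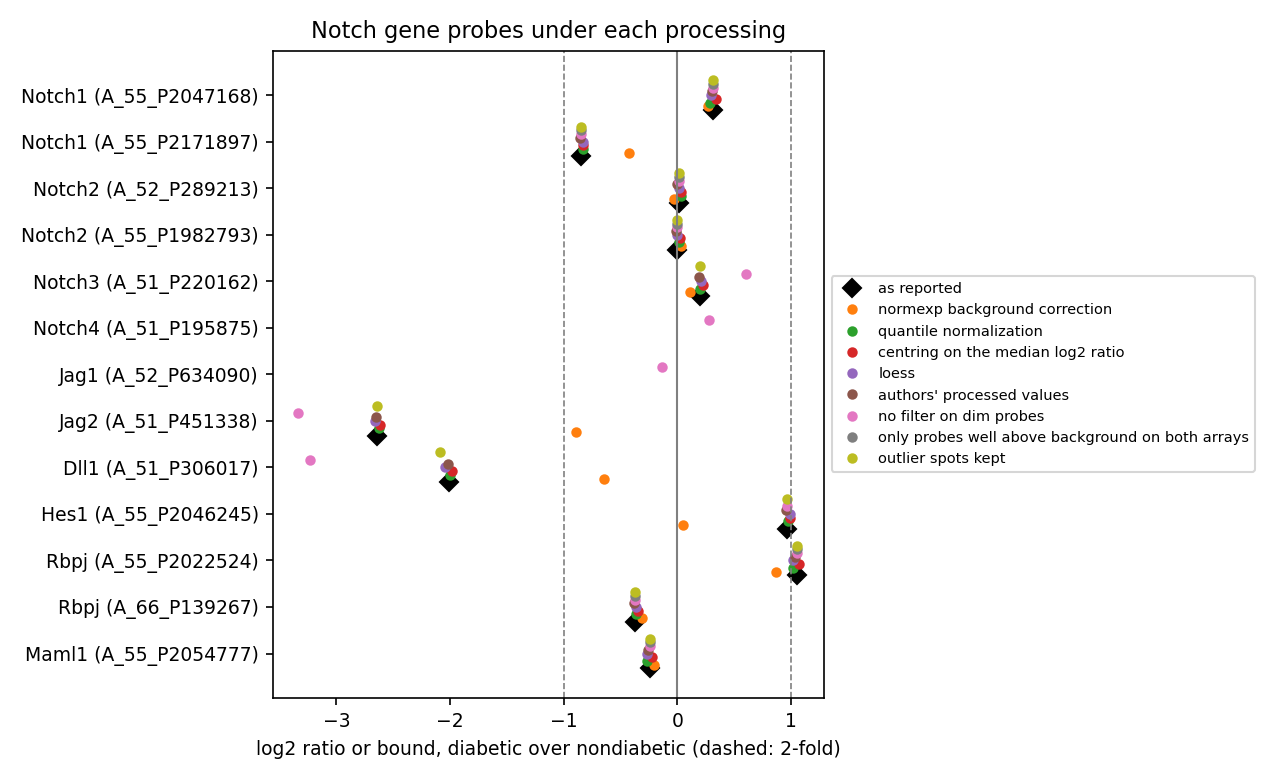
Log2 ratio or bound of diabetic over nondiabetic (x axis) for the 13 probes under each processing, the reported value as a black diamond and each alternative as a coloured point. Scalings lie on top of the reported value, normexp draws Jag2 to -0.89 and Dll1 to -0.65, and leaving dim values unfiltered moves them to -3.33 and -3.23.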

How the data were processed

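LSK cells were sorted by flow cytometry, and their amplified RNA was hybridised by a service company. The authors deposited, per array, Agilent Feature Extraction 11.5.1.1 output with the processed intensity of each spot, its error and its flags, not normalized between arrays. They also deposited a table equal to that intensity times 1 constant per array. How that constant was set is not given in the sources used here.

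Intensity was taken to log2 and the 75th percentile of non-control spots subtracted (168 and 182 in intensity). Outlier spots of either array were dropped from both, 1 Dll1 spot among them. Spots of a probe were averaged, and a gene was read by its brightest probe. Probes were named through their RefSeq accessions, which named 31845 of 59305 spots. The members and lists were chosen with earlier results of these data known. All members were named, and other pathway genes past 2-fold, at either end of their role, or with probes more than 2-fold apart. Dll4, Hes5, Hes6, Hes7, Myc and genes without a ratio were named besides.

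Alternatives were normexp (limma 3.58.1 in R 4.3.3, on median signals), quantile, loess and median centring, the authors' table, other dim-probe filters, the mean over probes and, added after the data were seen, outlier spots kept. The ratio script was tested on simulated data. Python 3.11.15 and pandas 2.3.3 were used. Some genes of the pathway list are counted but not reported here or drawn. The number of arrays, 1 per group, limits the precision. The study's methods describe male mice for some experiments, and the labels of these arrays give female.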

Additional observations from a re-analysis of the deposited data

How the results depend on the processing

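Under the alternatives 15 recomputed values moved by more than their error (counts by more than 1.5 times) and 123 did not, and none that passed 2-fold changed sign. Values near 0 did change sign. The members' median log2 ratio, 0.11, was -0.12 with the mean over probes and 0.0094 with normexp, and that of the other pathway genes, -0.02, was 0.04 with normexp and 0.0054 with centring. Notch2, 0.01, was -0.03 with normexp and -0.0029 by the authors' table. With normexp, 0 member genes and 0 member probes were at least 2-fold higher or lower, 3 other pathway genes were at least 2-fold lower, and the log2 values were -0.89 for Jag2, -0.65 for Dll1 and 0.047 for Hes1. With the mean over a gene's probes, Notch1 was -0.27 and Rbpj 0.34, which left 0 member genes at least 2-fold higher. With dim probes dropped altogether, 0 member genes and 0 member probes were at least 2-fold lower, since Jag2 and Dll1 were dim on the diabetic array. With no filter on dim probes, Jag2 was -3.33, Dll1 -3.23 and Notch3 0.60. With outlier spots kept, Dll1 was -2.09. Quantile, loess, centring and the authors' table changed no count of members. No paired analysis was possible because each group had 1 array, and for the same reason no replicate could be left out. Signal over background limits Notch3, Notch4, Jag1 and Hes1, which lay near or below the lowest signal called well above background, 10.2 and 10.1. It also limits Jag2 and Dll1, which lay below 10.1 on the diabetic array, at 6.22 and 4.31, so their reported sizes are bounds set by that limit.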
